A study of Mus musculus with 3 samples.

Results

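DEAD-box and DEAH-box RNA helicases were described by their transcript levels in satellite cells, the stem cells that repair skeletal muscle. The members were all genes in the table whose symbol starts with Ddx or Dhx followed by a number, apart from Ddx3x and Ddx3y, which were left out. This gave 52 of 20308 genes, 36 of them named Ddx and 16 named Dhx. The cells came from Pax7-ZsGreen mice aged 3 months, in which a green fluorescent protein marks cells that use Pax7, the transcription factor of satellite cells. Hindlimb muscle of several animals was digested, and ZsGreen-positive cells, about 200000 for a sample, were taken by sorting for RNA sequencing. The tissue is tibialis anterior in the sample labels but hindlimb muscles in the series text. The 3 libraries formed 1 group with no control, so the values describe levels in this population and no change between conditions. Nothing in the labels tells whether each library had its own pool of animals. The p-values therefore reflect how much the 3 samples vary, and that variation may be technical.

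These helicases are enzymes that bind RNA and use ATP to unwind short duplexes or to strip proteins from RNA. The family is named after a run of 4 amino acids, Asp-Glu-Ala-Asp in the DEAD-box group and Asp-Glu-Ala-His in the DEAH-box group, that lies in the ATP-binding site. DEAD-box enzymes mostly open RNA locally, while DEAH-box enzymes mostly move along a strand. Between them they act at each step in the life of an RNA, from transcription and splicing to ribosome assembly, export, translation and decay. A satellite cell that leaves quiescence makes more RNA and protein, which draws on many of these steps.

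The box that names the family was found in the coding sequence of most members. In the longest complete coding sequence per gene (GENCODE M21, GRCm38), codons for the DEAD run were found in 26 members and for the DEAH run in 9. In another 15 the run differed at the third amino acid, and in 2, Dhx32 and Ddx26b, the search found no such run. Ddx26b is annotated under the current symbol Ints6l, a relative of an Integrator subunit, so its older name places it among the helicases by symbol alone. The stretches below are 30 coding bases each, 5′ to 3′, with the 4 codons of the box in capitals. They are shown for the paralogues compared later in which the box was found, for Dhx9, the third member of the most abundant role group, and for Dhx36, a helicase with a known role in satellite cells.
Ddx5: cttgtccttGATGAAGCTGATaggatgctt
Ddx17: cttgtgttgGATGAGGCTGACcggatgctt
Ddx21: gttgtcctgGATGAAGTCGACcagatgttg
Ddx50: gttgtgcttGATGAAGTAGATcaaatgtta
Ddx39b: tttattttgGACGAGTGTGACaagatgctt
Ddx39: tttgtgctaGATGAATGTGACaagatgctg
Ddx19a: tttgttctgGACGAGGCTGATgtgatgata
Ddx19b: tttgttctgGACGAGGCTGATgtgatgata
Dhx15: ataattcttGATGAGGCCCATgaaagaaca
Dhx9: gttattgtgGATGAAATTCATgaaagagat
Dhx36: attgtacttGATGAAATTCATgaaaggaat
Ddx58: atgatatttGATGAGTGTCATaacactagc
Dhx58: attgtggtgGACGAGTGTCACcacacccac

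The stretch of Ddx5 lies at chr11:106785184-106785213 on the minus strand, and that of Dhx15 at chr5:52171487-52171516 on the minus strand. The stretches of Ddx19a and Ddx19b are the same 30 bases. Levels by type of box had medians of 42.4 TPM for the DEAD run, 54.5 TPM for the DEAH run and 25.9 TPM for other runs.

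Levels are given as TPM, a share of all transcripts in a library that takes transcript length into account, so genes can be set side by side. It is not an amount per cell, and the depth of each library is unknown. In sorted bulk cells, fewer cells that use a gene and less of its RNA per cell cannot be told apart. The satellite cell markers Pax7, Myf5, Itga7, Cdh15, Calcr, Vcam1, Sdc4 and Chodl were all above 10 TPM (8 of 8) by the test described next. Of all genes tested, 38.2% were above that level. Also above it were 2 of 3 endothelial, 2 of 3 fibro-adipogenic and 1 of 3 fibre markers, named below. Of the 2 leukocyte markers tested, 0 were. Markers of other cells were present too: those of endothelium (Pecam1, Cdh5, Kdr) summed to between 71.5 and 110 TPM per library, those of fibro-adipogenic cells (Pdgfra, Dpt, Ly6a) to between 596 and 624 TPM, with Dpt above 554 TPM in each but Pdgfra at 4.98, 0.11 and 0.06 TPM. Leukocyte markers (Ptprc, Cd68, Cd3e) summed to between 2.18 and 37.6 TPM, with Cd3e at 0 in all libraries, and fibre markers (Ckm, Acta1, Myh4) to between 20.1 and 62.7 TPM. The part of such cells in the helicase levels was not tested.

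Of the helicase genes, 32 lay above 10 TPM in these cells and 4 below it, each of the 4 listed at 0 in 2 libraries, while 4 more were listed at 0 throughout. Each gene's level was tested against 1, 10 and 100 TPM with limma, two-sided, on log2(TPM + 0.1), with Benjamini-Hochberg adjustment over all 12822 genes above 0 in at least 1 library. Of the 52 members, 48 passed that filter and 4 were listed at 0 in all libraries. Of the 48 tested, 41 lay above 1 TPM (85.4%), against 60.8% of all genes tested. Above 10 TPM were 32 members (66.7%), against 38.2% of all genes tested, and above 100 TPM were 11 members (22.9%), against 9.54%. Below 100 TPM were 34 members, against 85.1% of all genes tested, and below 10 TPM were 4 members, against 17.5%. None was called below 1 TPM by limma, also at an unadjusted p threshold of 0.05 (0 members), against 2.18% of all genes tested. The median member level was 36.0 TPM, against 11.5 TPM over all genes tested and 2.24 TPM over the whole table. These counts describe the list and carry no test of the list itself.

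**Figure D1:**
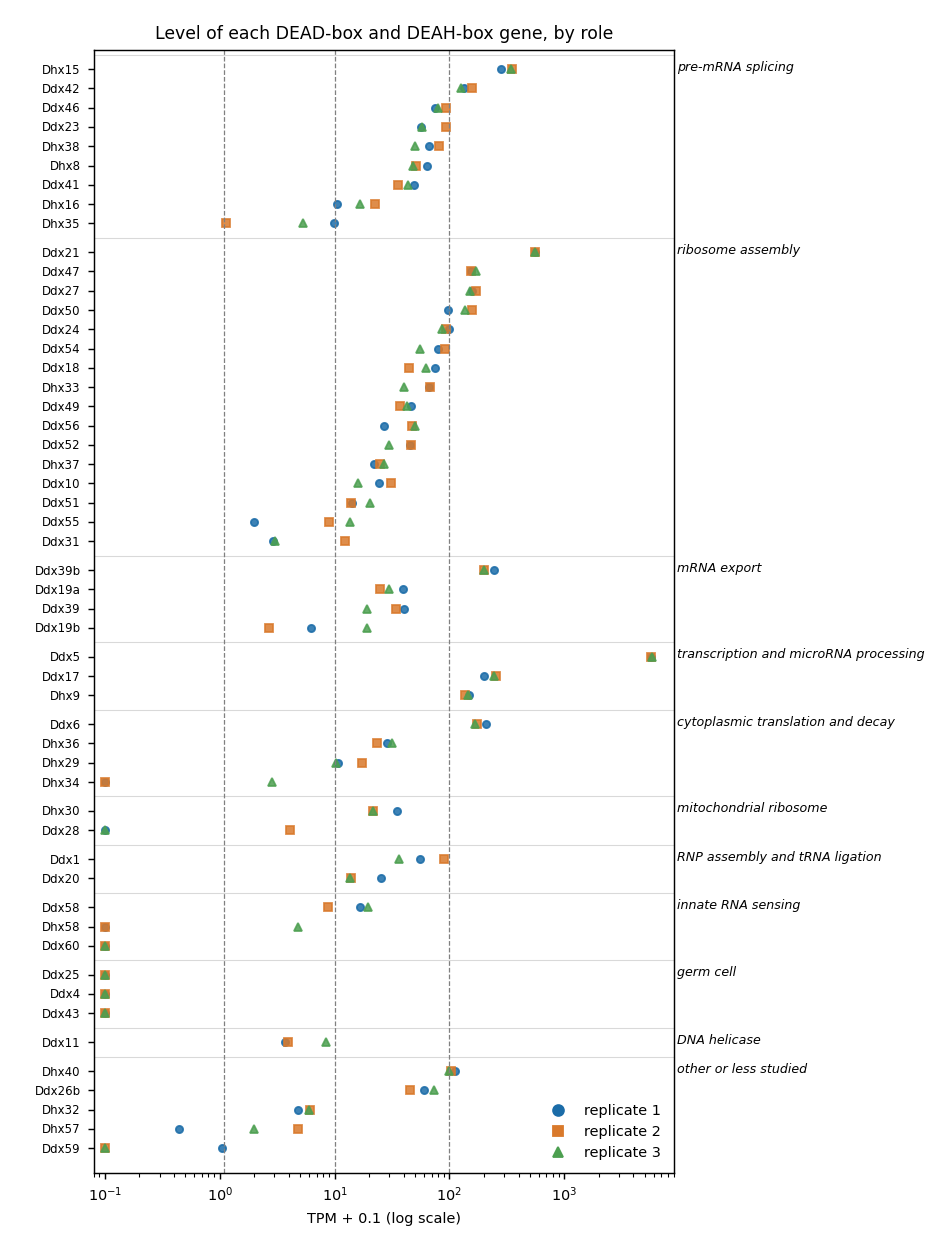
Level of each of the 52 members as TPM + 0.1 on a log axis, grouped by role, with 1 symbol per library (replicates 1 to 3) and dashed lines at 1, 10 and 100 TPM. Ddx5 stands alone near 5731 TPM, 25 members average between 10 and 100 TPM, and the germ cell genes and Ddx60 lie at 0 in every library (drawn at 0.1).

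Within the list chosen by symbol, a single gene supplied the larger part of the transcripts. The list leaves out Ddx3x, Ddx3y and RNA helicases with other names, such as Eif4a1 at 1622 TPM. The shares below hold for this list only. Ddx5, a coregulator of transcription and splicing that also works with the microRNA-processing enzyme Drosha (chromosome 11, 106780355 to 106789185, minus strand, GRCm38), gave 5741, 5664 and 5787 TPM in replicates 1, 2 and 3. The 3 values lay close together, and no other member came near them in any library. Ddx5 held 62.2% ± 1.01 of the family's TPM (SD, n = 3), and the 10 members with the highest means held 85.1% ± 0.867. The family as a whole summed to 9193, 9268 and 9173 TPM, which is 0.921% ± 0.00498 of all transcripts in the table. Without Ddx5 it summed to 3480 ± 112 TPM. Of the 31-base words of the longest Ddx5 transcript, 33.4% also occur in other annotated genes, 30.06% in the processed pseudogene Gm12183. How the deposited values divided such reads is not given, so part of the Ddx5 level may depend on it.

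**Figure D2:**
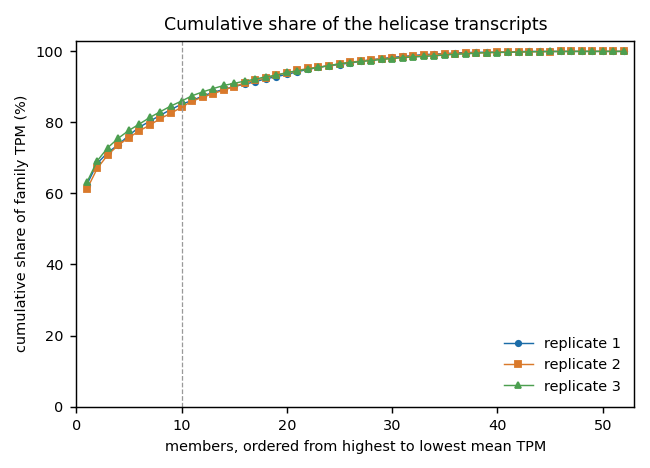
Cumulative share of the family's TPM, in percent, with the 52 members ordered along the horizontal axis from the highest to the lowest mean TPM and 1 line per library. The first point is Ddx5 at 62.2% on average, and the dashed line marks the 10 members that hold 85.1%.

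Helicases of transcription and microRNA processing were all abundant. Besides Ddx5 this group held Ddx17, its closest relative (chromosome 15, 79527736 to 79546741), at 202, 253 and 245 TPM. It also held Dhx9, or RNA helicase A, which links transcription factors to RNA polymerase and unwinds structured RNA, at 148, 137 and 146 TPM. All 3 members were above 100 TPM (limma adjusted p = 2.1e-10 for Ddx5, 2.9e-05 for Ddx17 and 0.0016 for Dhx9), against 9.54% of all genes tested. The Dhx9 call was lost without a variance trend (adjusted p = 0.077). Ddx5 and Ddx17 are known, with the RNA Sra1, as coactivators of the myogenic factor MyoD. Of 6 listed partners of the pair, 6 were above 1 TPM and 5 above 10 TPM, against 60.8% and 38.2% of all genes tested. Myod1 itself averaged 1240.5 ± 74.5 TPM, Sra1 50.3 ± 22.2 TPM and the coactivator Ncoa1 47.9 ± 11.6 TPM. The microprocessor subunits stood lower, with Drosha at 20.7 ± 3.67 TPM and Dgcr8, the lowest of the list, at 9.55 ± 2.16 TPM (SD, n = 3 each).

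Helicases of ribosome assembly formed the largest group, and most of them were well above 10 TPM. Of 16 members, 15 were above 1 TPM, 13 above 10 TPM and 4 above 100 TPM (limma, adjusted), against 60.8%, 38.2% and 9.54% of all genes tested. Their median was 50.2 TPM. Ddx21, a nucleolar enzyme of ribosomal RNA synthesis and processing (chromosome 10, 62580251 to 62602281), gave 556, 553 and 559.8 TPM. It was the second highest member and the one with the smallest spread among those above 0, with an SD of 0.0088 on the log2 scale. Its neighbour and paralogue Ddx50 gave 98.0, 158 and 137 TPM, lower in replicate 1 than in the others.

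The other ribosome assembly helicases covered a wide range of levels. Ddx47 gave 154, 153 and 170.1 TPM. Ddx27, needed in zebrafish for muscle growth and regeneration, gave 156, 169 and 151 TPM. Both were above 100 TPM (limma adjusted p = 0.00045 and 0.00047), as was Ddx50 (adjusted p = 0.041). The Ddx50 call was lost under 5 alternatives: without replicate 2 (0.27) or replicate 3 (0.067), with a pseudocount of 1 (0.058), with no filter on low values (0.10) and without a variance trend (0.25). Between 10 and 100 TPM on average were Ddx24 (92.2 TPM), Ddx54 (75.4), Ddx18 (60.4), Dhx33 (58.3), which acts in ribosomal RNA transcription, Ddx49 (42.2), Ddx56 (41.5), Ddx52 (40.6), Dhx37 (24.6), Ddx10 (23.7) and Ddx51 (16.1). Ddx51 was not decided against 10 TPM, and the call of Ddx10 above it was lost without replicate 2 (0.083) or a variance trend (0.052). Of the words of Ddx18, 72.9% occur in other annotated genes, most of them in the processed pseudogene Gm16433, so its level is uncertain. The lowest were Ddx55, at 1.88, 8.89 and 13.4 TPM, and Ddx31, at 2.81, 12.1 and 2.95 TPM. Their libraries differed several-fold and not in the same order. Ddx55 was above 1 TPM (limma adjusted p = 0.017) but not without replicate 2 (0.065), replicate 3 (0.13) or a variance trend (0.052). Ddx31 was not decided (adjusted p = 0.053). It passed without replicate 1 (0.016) or replicate 3 (0.014), but p-values with a replicate left out are not comparable with those of the main fit.

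Most spliceosome helicases lay above 10 TPM. Several spliceosome helicases drive a set step, from recognition of the branch site to release of the spliced RNA and breakdown of the machine. Of 9 members, 8 were above 1 TPM, 7 above 10 TPM and 2 above 100 TPM (limma, adjusted), against 60.8%, 38.2% and 9.54% of all genes tested. Their median was 65.8 TPM. Dhx15, which takes the spliceosome apart and also serves ribosome assembly (chromosome 5, 52150203 to 52190514), gave 280.2, 352 and 341 TPM, lowest in replicate 1. Ddx42, a partner of the branch site complex, gave 134, 157 and 126 TPM, and its call above 100 TPM was lost without a variance trend (0.11). Ddx46, which acts when the branch site is recognised, averaged 83.0 ± 10.04 TPM. Ddx23, which helps exchange snRNPs at the start of splicing, averaged 68.8 ± 20.8 TPM. Dhx38 and Dhx8, which act at the later catalytic steps and at release, averaged 65.8 ± 15.4 and 54.5 ± 8.31 TPM (SD, n = 3 each).

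The remaining splicing helicases stood lower. Ddx41, also described as a sensor of foreign nucleic acids, averaged 42.6 ± 6.96 TPM. Of its exon bases 17.4% lie opposite exons of another gene. The strand setting of the counting is not given, so reads of both strands may be mixed there. The same holds for over 10% of the exon bases of Ddx39, Ddx43, Ddx49 and Ddx54. Dhx16, which starts the first catalytic step, averaged 16.5 ± 6.06 TPM. Dhx35, a component of the catalytic spliceosome, gave 9.76, 1.04 and 5.24 TPM and was not decided against 1 TPM (limma adjusted p = 0.14). It passed without replicate 2 (0.0036), a p-value not comparable with that of the main fit.

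Export helicases were represented by one abundant and several lower genes. All 4 were above 1 TPM and 3 above 10 TPM (limma, adjusted), against 60.8% and 38.2% of all genes tested, with a median of 31.3 TPM. Ddx39b, which loads export factors on spliced RNA and also acts in splicing (chromosome 17, 35241746 to 35253707), gave 244, 198 and 199 TPM and was above 100 TPM (adjusted p = 7e-05). Its paralogue Ddx39 gave 40.2, 34.3 and 18.9 TPM. Ddx19a and Ddx19b, which release export factors from RNA at the nuclear pore, gave 39.3, 24.97 and 29.9 TPM, and 6.14, 2.57 and 19.2 TPM. Ddx19b was above 1 TPM (adjusted p = 0.0099) but not without replicate 3 (0.15), its highest library. Of the words of Ddx19a, 37.5% also occur in Ddx19b.

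Helicases of cytoplasmic translation and decay ranged from abundant to barely listed. Ddx6, which represses translation and promotes decay in P-bodies, gave 210.2, 175 and 166 TPM and was above 100 TPM (limma adjusted p = 0.00024). Dhx36 unwinds G-quadruplexes and is needed for regeneration by mouse satellite cells. It gave 28.4, 23.1 and 31.6 TPM, above 10 TPM (adjusted p = 0.00065). Dhx29, which helps ribosomes scan structured leaders, averaged 12.7 ± 3.89 TPM. Dhx34, linked to nonsense-mediated decay, was listed at 0, 0 and 2.77 TPM.

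Smaller groups were mixed. Ddx1, a subunit of the tRNA ligase complex, gave 55.2, 88.8 and 36.0 TPM, and Ddx20, a subunit of the SMN complex that assembles snRNPs, gave 25.4, 13.7 and 13.5 TPM. Of the helicases of mitochondrial ribosome assembly, Dhx30 gave 34.8, 21.5 and 21.5 TPM, whereas Ddx28 was listed at 0, 3.98 and 0 TPM. The DNA helicase Ddx11, which acts in sister chromatid cohesion, gave 3.62, 3.86 and 8.40 TPM. It was above 1 TPM (limma adjusted p = 0.033) but not without replicate 3 (0.19) or with a pseudocount of 1 (0.058). Among less studied members, Dhx40 gave 112, 103 and 99.7 TPM and Ddx26b averaged 59.8 ± 14.3 TPM. Dhx32 gave 4.73, 6.03 and 5.84 TPM, a level above 1 TPM (adjusted p = 0.015) but not without replicate 2 (0.053). Dhx57 gave 0.34, 4.67 and 1.88 TPM, and Ddx59 was listed at 0.94, 0 and 0 TPM.

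Of the 3 members that sense viral RNA, 2 were tested and 1 was above 1 TPM, against 60.8% of all genes tested. The germ cell helicases were listed at 0. Ddx58, or RIG-I, which detects viral RNA in the cytoplasm (chromosome 4, 40203773 to 40239828), gave 16.4, 8.70 and 19.4 TPM and was above 1 TPM (limma adjusted p = 1.8e-05). Dhx58, or LGP2, which modulates that pathway, was listed at 0, 0 and 4.72 TPM, and Ddx60 at 0 in all 3 libraries. Of 8 listed partners of the receptors, 6 were above 1 TPM, against 60.8% of all genes tested. Above 10 TPM were 3 (37.5%) and above 100 TPM was 1 (12.5%), with a median of 12.9 TPM over the 8. The shares above 10 and 100 TPM are near the 38.2% and 9.54% of all genes tested. The antiviral zinc finger protein Zc3hav1 averaged 132 ± 16.7 TPM, the kinase Tbk1 79.1 ± 13.8 TPM and the ubiquitin ligase Trim25 62.4 ± 10.3 TPM (SD, n = 3 each). The related receptor Ifih1, or MDA5, averaged 15.9 ± 2.80 TPM. Mavs, the adaptor that the receptors signal through, was the lowest at 0.72, 4.0 and 1.47 TPM and was not decided. The germ cell helicases Ddx4 (Vasa), Ddx25 and Ddx43 were listed at 0 in all 3 libraries. Since depth is unknown and a listed 0 may be a failed estimate, these zeros do not show absence.

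The 4 members called below 10 TPM were Ddx28, Dhx34, Dhx58 and Ddx59, each listed at 0 in 2 of 3 libraries, so the calls rest on zeros that may be failed estimates. Their adjusted p-values against 10 TPM in limma lay between 0.0059 and 0.028. With any 1 replicate left out, no tested member was called below 10 TPM, also at an unadjusted p threshold of 0.05 (0 members each time). A member at 0 in the remaining libraries was not tested in that run. This removed Ddx59 without replicate 1, Ddx28 without replicate 2, and Dhx34 and Dhx58 without replicate 3. The 7 other members with a mean above 0 and under 10 TPM did not pass against that level.

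Within pairs of paralogues the higher gene was the same in every library. Pairs were compared as log2 ratios of (TPM + 0.1) within each library, and tested with a two-sided exact permutation of their signs. For each of the 6 pairs the exact p was 0.25, the smallest that 3 libraries allow, and 0.25 after Benjamini-Hochberg adjustment over the 6. Ddx5 exceeded Ddx17 by 4.63 ± 0.181 (24.7-fold), and their coding sequences are 69.3% identical over the aligned bases. Ddx39b exceeded Ddx39 by 2.84 ± 0.477 (7.16-fold), at 81.2% identity. Ddx21 exceeded Ddx50 by 2.11 ± 0.357 (4.33-fold), at 65.9% identity; the genes lie on the same strand of chromosome 10, 13613 bases apart.

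The other pairs ranged from the steadiest to the most variable ratio. Dhx15 exceeded Dhx32 by 5.85 ± 0.0093 (57.6-fold), almost the same in each library (5.86, 5.84 and 5.84). Ddx19a exceeded Ddx19b by 2.18 ± 1.36 (4.52-fold), with log2 ratios of 2.66, 3.23 and 0.63, and by 2.94 without replicate 3. These 2 genes are 92.5% identical in coding sequence and lie 5387 bases apart on chromosome 8, so the ratio also depends on how shared reads were divided. Ddx58 was higher than Dhx58 in 3 of 3 libraries, but with Dhx58 listed at 0 in replicates 1 and 2 no fold is given. In replicate 3, where both were above 0, the log2 ratio was 2.02.

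**Figure D3:**
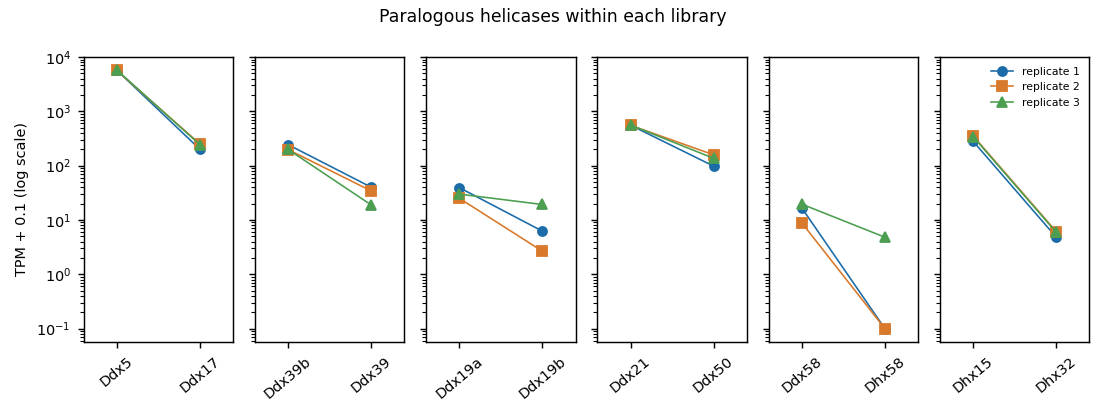
Levels of both genes of each of the 6 paralogue pairs, as TPM + 0.1 on a log axis, with a line joining the values of 1 library. The first gene is higher in every library, the lines for Dhx15 and Dhx32 run nearly parallel, and replicate 3 departs from the others for Ddx19b and Dhx58.

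The spread between libraries shrank with level, in the helicases as in the table. Among members averaging at least 100 TPM (12 genes), the median SD on the log2(TPM + 0.1) scale was 0.125, against 0.17 for the 1545 genes of the table at that level. Between 10 and 100 TPM (25 members) it was 0.371, against 0.436 for 5220 genes. Between 1 and 10 TPM (9 members) it was 1.46, against 2.32 for 4553 genes. At 10 to 100 TPM the widest spread was that of Ddx1, at 0.651. At 1 to 10 TPM, 2 of the 9 members and 2122 of the 4553 genes were listed at 0 in some library.

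**Figure D4:**
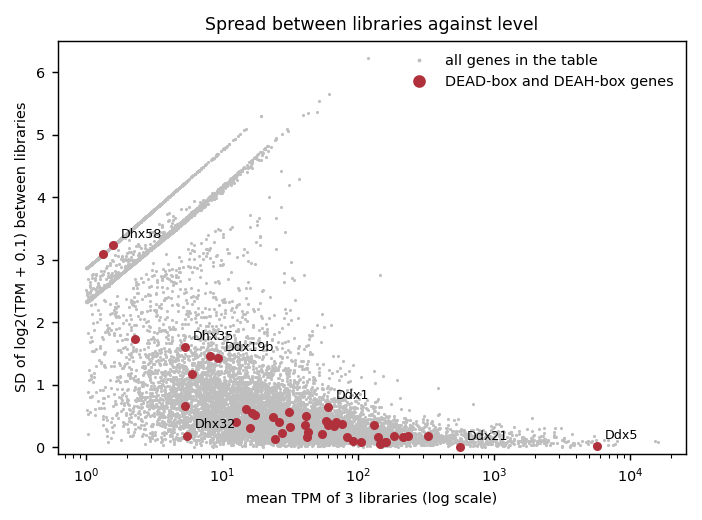
SD of log2(TPM + 0.1) between the 3 libraries against mean TPM on a log axis, for members (red) and all genes (grey) averaging at least 1 TPM. Ddx5 and Ddx21 lie near the bottom at SDs of 0.016 and 0.0088, and Dhx58 lies on the upper band of genes listed at 0 in 2 libraries.

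RNA helicases outside the family by name, cofactors of DEAD-box enzymes and G-patch proteins were described in the same way. Of 22 RNA helicases with other names, 19 were tested. Of these, 15 were above 1 TPM (78.9%), 10 above 10 TPM (52.6%) and 3 above 100 TPM (15.8%) by limma, against 60.8%, 38.2% and 9.54% of all genes tested. The median of the 22 was 14.0 TPM. The highest were the translation initiation helicases Eif4a1 at 1622 ± 181 TPM and Eif4a2 at 871 ± 62.1 TPM, and Eif4a3 of the exon junction complex at 219.6 ± 69.98 TPM (SD, n = 3 each). Mov10l1, Tdrd9 and Tdrd12, which act in germ cells, were listed at 0 in all libraries.

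Of 23 cofactors of DEAD-box enzymes, 22 were above 1 TPM (95.7%), 20 above 10 TPM (87.0%) and 7 above 100 TPM (30.4%), against the same background shares, with a median of 67.9 TPM. The list includes cofactors of the Eif4a helicases, which are not members, among them the 3 highest. These shares therefore do not describe cofactors of members alone. Eif4g2 led at 947 ± 38.1 TPM, followed by Magoh at 522 ± 136 TPM and the scaffold Eif4g1 at 433 ± 34.2 TPM. Edc3, a decapping cofactor that binds Ddx6, was the lowest at 2.32, 1.23 and 3.64 TPM. Some G-patch proteins activate DEAH-box enzymes. Of 22 G-patch proteins, 20 were above 1 TPM (90.9%), 12 above 10 TPM (54.5%) and 3 above 100 TPM. Their median was 26.5 TPM. The share above 100 TPM, 13.6%, is near the background of 9.54%. The highest were Son at 299 ± 11.3 TPM, Rbm17 at 225 ± 63.5 TPM and Gpatch4 at 142 ± 22.5 TPM, and the lowest was Gpatch1 at 0.89, 3.99 and 0 TPM.

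The members were spread over 16 chromosomes, with 8 on chromosome 11 and 7 on chromosome 8. Promoters (250 bases before to 50 after the start, RefSeq, GRCm38.p6) were matched for 46 members, and 4 motifs were searched on both strands, with no test. CCGGAAG, the core bound by ETS factors, was found in 16 of the 33 matched members averaging at least 10 TPM (48.5%), against 21.5% of 5188 genes of the table at that level. The E-box CACGTG was found in 4 of the 33 (12.1%), against 13.0%. TATAAA was found in 4 (12.1%), against 8.8%, and the palindromic NRF1 site in 1 (3.0%), against 2.6%. Over all promoters, the shares of genes with these motifs were 9.9%, 8.1%, 15.7% and 1.1% in the order given. A match is a description of these letters and shows no binding.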

How the data were processed

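The authors deposited 1 table of TPM with 1 column per library, whose name states TPM renormalised without mitochondrial genes. The submitters' processing notes name mm10, CASAVA 1.8, Bowtie 0.12.9 and RSEM 1.2.3. Their roles and settings, the strand and the annotation are not stated in any source used here. TPM keeps no read totals, so depth is unknown and no counting interval is given.

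Levels were tested with limma 3.58.1 (R 4.3.3): an intercept on log2(TPM + 0.1) against 1, 10 or 100 TPM, empirical Bayes with a variance trend, and Benjamini-Hochberg adjustment (threshold 0.05). This scale understates folds of low genes. Simulated data held 12822 genes, with 50 planted at each fold over each level. Each planted gene was given the typical spread of its level. Real genes at a level differ in spread, so the shares may not hold for a given member. Of the planted genes, 16% at 2-fold, 46% at 4-fold and 100% at 8-fold were called above 1 TPM. At the level itself 8% were called above 1 TPM and another 4% below it. At 2-fold over 10 TPM the share called above was 88%.

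Gene models came from GENCODE M21 (GRCm38); 51 members matched by symbol and 1 by an older one. Shared words are 31-base stretches of the longest transcript that recur in the longest transcript of another gene. Coding sequences were aligned with mafft 7.526. The box was searched as in-frame Asp-Glu, any residue, then Asp or His, after hydrophobic residues and downstream of a Gly-Lys-Ser or Gly-Lys-Thr loop.

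Every member is named. Values per library are given for the 8 highest members, those at 0 in some library, paired genes and the highest and lowest of each of 11 role classes; of other lists, the 3 highest, the lowest and those at 0 throughout. Members and lists were chosen with earlier results of these data known, and the promoter motifs after seeing the levels. Alternatives changed the pseudocount, low-value filter, variance trend, scaling and libraries, or left out members that share over 20% of their words.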

Additional observations from a re-analysis of the deposited data

How the results depend on the processing

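The counts of members above 1, 10 and 100 TPM stayed within 1.5 times of 41, 32 and 11 under every alternative run, between 38 and 42, 29 and 33, and 8 and 11. The count below 10 TPM, 4 as reported, was 1 with a pseudocount of 0.01, 5 with a pseudocount of 1, 1 without a variance trend and 7 with no filter on low values. With a pseudocount of 0.01 or without a variance trend, Ddx28, Dhx34 and Dhx58 lost the call. Dhx57 gained it with a pseudocount of 1. With no filter Dhx58 lost it, and the 7 include the 4 members at 0 in all libraries. It was 0 with any 1 replicate left out, but members then at 0 in the remaining libraries were not tested. The count below 1 TPM, 0 as reported, was 4 with no filter, the 4 members at 0 in all libraries, which then entered the test. The median member level was 31.1 TPM instead of 36.0 TPM without Ddx5, Ddx18 and Ddx19a, which share over 20% of their words with other genes; fewer members were then counted. Role class medians moved by less than 1 SD between libraries under rescaling and with replicates left out. That SD comes from the same 3 libraries, so it is a lenient limit. The innate RNA sensing median was 0 instead of 1.57 TPM without replicate 3, against an SD of 2.73 TPM. The pseudocount does not enter these medians. Every pair ratio kept its direction. These alternatives could not change it, because the higher gene was the same in every library. Ddx58 over Dhx58 ranged from 3.08 to 7.50 on the log2 scale with the pseudocount. Median-of-ratios rescaling used library factors of at most 0.0386 on the log2 scale and changed no member's call. Without a variance trend 15 of the members' 144 comparisons with a level lost their call and 1 gained one. No paired analysis was possible because all libraries belong to 1 group. The limma p-values with a replicate left out are not comparable with those of all 3 libraries. For Ddx1 against 1 TPM the adjusted p was 1.7e-80 without replicate 2, against 1.1e-08 with all 3. Calls gained with a replicate left out therefore add no evidence. With 3 libraries and unknown depth, levels near 1 TPM are the least certain.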
